A study of Homo sapiens with 6 samples.

Results

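Embryonic kidney transcription factors are the 8 regulators PAX2, PAX8, SIX2, EYA1, LHX1, WT1, SALL1 and OSR1, which were picked out of the HEK293T count table by matching Ensembl identifiers to these symbols. All 8 were found among the 63086 genes of the table. HEK293T is an established line descended from cultured human embryonic kidney cells that took up adenovirus DNA, and it also carries the SV40 large T antigen, so each library comes from 1 transformed line and not from a developing kidney. The 3 libraries of the 100Q group came from depleted cells given queuine, at 100 nM by the sample characteristics but 1 µM for 24 hours by the treatment protocol. The 3 libraries of the 0Q group came from cells without queuine, and the shared growth medium held 10% dialyzed serum. Queuine is a base taken up by mammalian cells, which exchange it for a guanine in the anticodon of 4 kinds of tRNA, those charged with aspartate, asparagine, histidine and tyrosine, to make queuosine.

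In the embryo, kidney tissue arises from intermediate mesoderm, where OSR1, LHX1, PAX2 and PAX8 act early. Nephron progenitors then form a cap of mesenchyme around the branching ureteric bud, and SIX2 keeps them undifferentiated together with EYA1, SALL1 and WT1. Most of these roles were worked out in the mouse, and mutations in several of the human genes cause malformed kidneys or, for WT1, Wilms tumour.

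Libraries of the 100Q group held 4023956 to 11398835 estimated counts and those of the 0Q group 7264638 to 8035251. In a principal component analysis of all tested genes, 100Q replicate 2 stood apart on the first component (30.9% of the variance) and 100Q replicate 1 on the second (22.7%). These libraries had the fewest estimated counts, 4023956 in 100Q replicate 2 and 5219707 in 100Q replicate 1, and the part of depth was not tested. Levels are given as CPM, a count relative to its library's total after the TMM scaling of edgeR, and levels of different genes are compared as CPM per kilobase of exon. A gene was called present where it passed edgeR's default filter on low counts, silent where no library held more than 3 counts, and low otherwise. Whether the triplicates are separate cultures is not stated, and p-values therefore reflect only the spread among these libraries, which may be technical. In bulk RNA, fewer cells expressing a gene and less RNA of it per cell cannot be told apart.

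HEK293T cells contained RNA of 6 of the 8 regulators at testable levels, whereas OSR1 was low and PAX8 silent. The progenitor factors SIX2 and SALL1 were by far the most abundant, and no regulator passed the test between 100Q and 0Q. With edgeR's quasi-likelihood test over 14905 genes, 0 of the 6 tested regulators passed a Benjamini-Hochberg adjusted p of 0.05, and 2 of all tested genes did (0.0134%), both higher in 100Q. DESeq2, which called 0.0789% of all genes, and limma-voom, which called 0.00671%, also called 0 regulators. At an unadjusted p under 0.05 there was 1 regulator, EYA1, lower in 100Q by each of the 3 tools. Of all genes with a p, 2.23% were lower at this threshold with edgeR, 1.78% with DESeq2 and 2.66% with limma-voom. The median log2 fold change of the 6 was 0.30, beside -0.0027 over all tested genes, with 4 positive and 2 negative values.

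**Figure D1:**
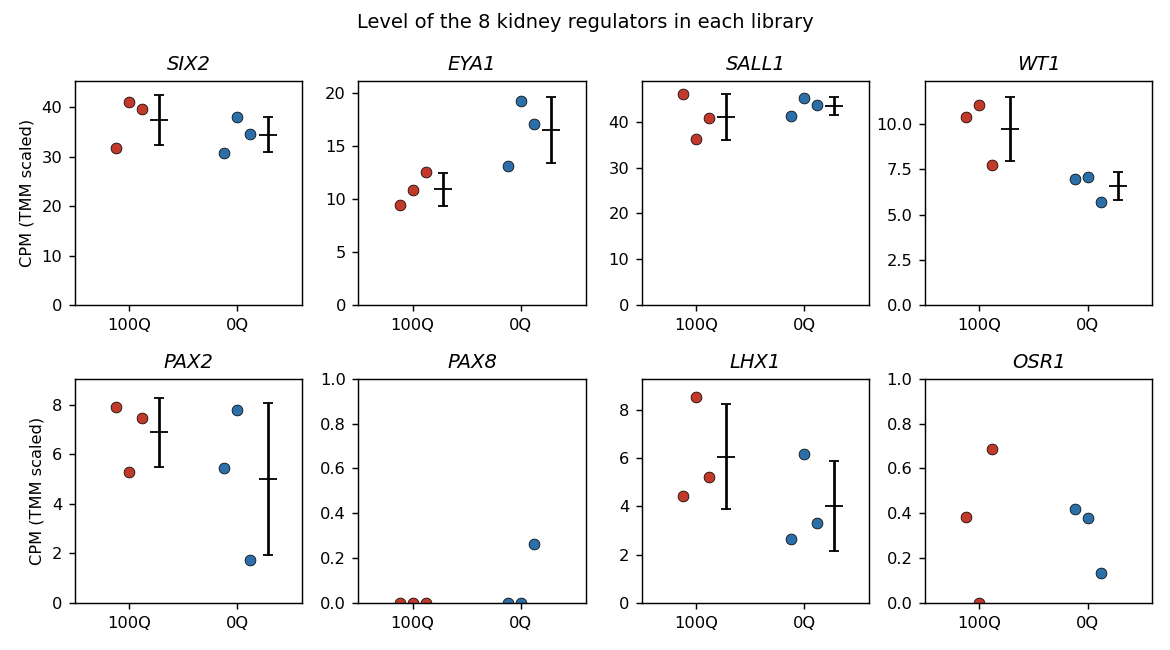
CPM (TMM scaled) of each regulator in each library, 100Q left and 0Q right, replicates 1 to 3 from left to right. Lines with caps are the mean and SD of 3 libraries, drawn for the 6 regulators that were tested. SIX2 and SALL1 lie at 30.8 to 46.0 CPM in every library, the groups lie apart for EYA1 and WT1, and PAX8 has counts in 1 library.

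SIX2, a homeobox factor that holds nephron progenitors in a self-renewing state, was the most abundant of the 8 per length. It had 31.8, 41.2 and 39.6 CPM in 100Q replicates 1 to 3, against 30.8, 38.0 and 34.6 CPM in 0Q replicates 1 to 3. The groups overlapped, with 100Q replicate 1 inside the range of 0Q. The log2 fold change was 0.12 ± 0.14 (SE), and its 95% interval of -0.18 to 0.43 corresponds to 0.882-fold to 1.34-fold, so a doubling lies outside it (edgeR quasi-likelihood, adjusted p = 0.9905). The gene lies on chromosome 2, 45005182 to 45009452, on the minus strand (hg38). Its estimated counts were whole numbers, 165, 164 and 462 in 100Q against 221, 302 and 262 in 0Q.

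SALL1, a zinc finger repressor required for the ureteric bud to invade the mesenchyme and for progenitors to persist, came next. It had 46.0, 36.2 and 40.8 CPM in 100Q, against 41.3, 45.2 and 43.7 CPM in 0Q. The lowest and the highest of the 6 libraries were both 100Q, so the groups overlapped. The log2 fold change was -0.08 ± 0.13 (SE), with a 95% interval of -0.35 to 0.19, or 0.786-fold to 1.14-fold (edgeR quasi-likelihood, adjusted p = 0.991). SALL1 lies on chromosome 16, 51135982 to 51152334, minus strand. A pair of antisense noncoding genes overlaps its body but not its exons, with 0 to 3 counts each in any library.

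EYA1, a phosphatase and coactivator that works in a complex with SIX2 and its paralogs, had the smallest p of the 8. It had 9.43, 10.8 and 12.5 CPM in 100Q, against 13.1, 19.2 and 17.0 CPM in 0Q. All 3 libraries of 100Q lay below those of 0Q, but 100Q replicate 3 and 0Q replicate 1 lay close, at 12.5 and 13.1 CPM, or 12.8 and 12.9 CPM when scaled by library size only. Group means were 10.9 ± 1.55 (100Q) and 16.5 ± 3.10 CPM (0Q), with the SD over 3 libraries each. The log2 fold change was -0.58 ± 0.22 (SE), with a 95% interval of -1.05 to -0.11, and it did not pass over all genes (edgeR quasi-likelihood, unadjusted p = 0.0187 and adjusted p = 0.987). By p it ranked 255 of 14905, and the unadjusted p was 0.0939 without 0Q replicate 2 and 0.0610 without 100Q replicate 1. EYA1 spans 71197433 to 71592025 on chromosome 8, minus strand, and the antisense noncoding genes over it held 0 to 2 counts in any library and the pseudogene TRAPPC2P2 inside it 0.

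WT1, a zinc finger factor needed for the survival of kidney mesenchyme and later for podocytes, showed the opposite direction. It had 10.4, 11.05 and 7.72 CPM in 100Q, against 6.98, 7.04 and 5.68 CPM in 0Q. The groups did not overlap, although 100Q replicate 3, the deepest library, lay close to 0Q. Group means were 9.72 ± 1.76 (100Q) and 6.57 ± 0.77 CPM (0Q), likewise with the SD. Its log2 fold change of 0.55 ± 0.30 (SE) had a 95% interval of -0.08 to 1.18 (edgeR quasi-likelihood, unadjusted p = 0.0842 and adjusted p = 0.987). Of the 6 tested regulators the groups lay apart for 1 that was higher in 100Q, WT1, and 1 that was lower, EYA1. Over all tested genes 5.39% were apart and higher and 5.20% apart and lower.

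WT1 lies on chromosome 11, 32387775 to 32435564, minus strand, and the antisense gene WT1-AS overlaps its exons. WT1-AS had 13, 1 and 7 counts in 100Q, against 7, 4 and 11 in 0Q, beside 54, 44 and 90 counts of WT1 in 100Q and 50, 56 and 43 in 0Q. Whether the counting used strand is not given in the sources used here, so reads of this pair cannot be told apart. WT1-AS had at most 13 counts in any library, and its groups overlapped.

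PAX2, a paired-box factor of the intermediate mesoderm and ureteric lineage that helps switch on RET and GDNF in the mouse, was present at a lower level. It had 7.89, 5.27 and 7.46 CPM in 100Q, against 5.44, 7.80 and 1.72 CPM in 0Q. The groups overlapped, and 0Q replicate 3 was low, with 13 counts, against 39 and 62 in the other 0Q libraries. The log2 fold change of 0.47 ± 0.46 (SE) had a wide 95% interval, -0.51 to 1.45, which includes no difference and a doubling (edgeR quasi-likelihood, adjusted p = 0.9905). Without 0Q replicate 3 it was 0.07, and without 0Q replicate 2 it was 0.96, so this value rests on single libraries. PAX2 lies on chromosome 10, 100735396 to 100829944, plus strand.

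PAX8, which acts redundantly with PAX2 in the early mouse kidney, was silent. It had 0 counts in all 3 libraries of 100Q, against 0, 0 and 2 counts in 0Q. A count of 0 allows up to 0.263 to 0.746 CPM per library in 100Q, taking 3 counts as the limit, and up to 0.145 CPM over the 3 together, for counting error only. Both groups were at or under this floor, so no fold is given. PAX8-AS1, an antisense RNA over PAX8 exons, held 0 counts in 100Q, against 4, 0 and 1 in 0Q. PAX8 spans 113215997 to 113278921 on chromosome 2, minus strand. The longest stretch that transcripts of PAX2 and PAX8 share is 20 bases, shown because the pair are close paralogs that could share reads. The read length is not given in the sources used here.

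PAX2 and PAX8 shared stretch: agaatcatccggaccaaagt

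LHX1, a LIM homeobox factor of the intermediate mesoderm and later of the early nephron, had 4.43, 8.54 and 5.23 CPM in 100Q, against 2.65, 6.16 and 3.30 CPM in 0Q. Replicate 2 was the highest library of each group, and the groups overlapped. The log2 fold change was 0.56 ± 0.45 (SE), with a 95% interval of -0.39 to 1.51 (edgeR quasi-likelihood, adjusted p = 0.987). It was 0.26 without 100Q replicate 2 and 1.01 without 0Q replicate 2. LHX1 lies on chromosome 17, 36936785 to 36944612, plus strand, and an antisense noncoding gene over its exons, ENSG00000276707, had 0 counts in 100Q and at most 3.94 in a 0Q library.

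OSR1, a zinc finger factor and one of the earliest markers of intermediate mesoderm, was low and was not tested. It had 2, 0 and 8 counts in 100Q, against 3, 3 and 1 in 0Q. Most counts of 100Q came from replicate 3, the deepest library. Relative to library totals the ratio of 100Q over 0Q was 1.59, with an exact 95% counting interval of 0.545 to 4.91, and without 100Q replicate 3 it was 0.708 (0.0718 to 3.72). OSR1 spans 19351485 to 19358623 on chromosome 2, minus strand.

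**Figure D2:**
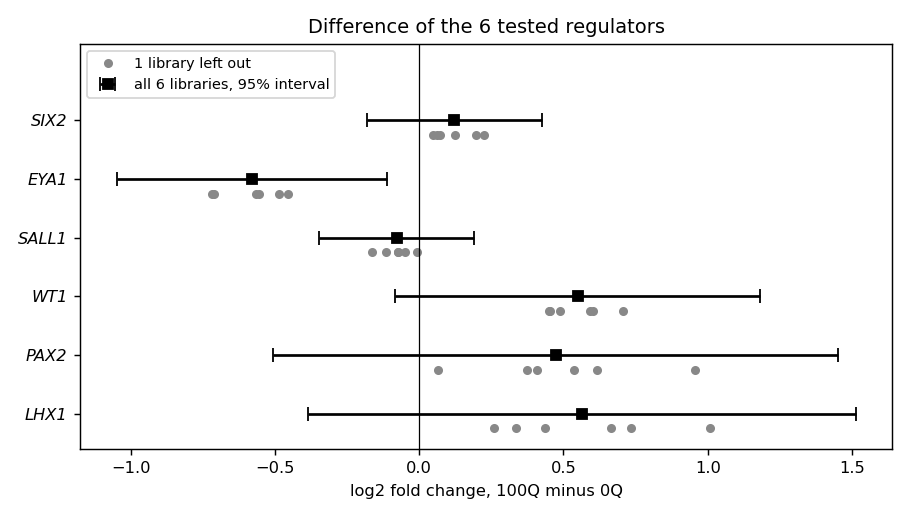
Log2 fold change of the 6 tested regulators, 100Q minus 0Q, with the 95% interval of edgeR's fit (black), and the value with each library left out in turn (grey). The interval of EYA1, -1.05 to -0.11, lies below 0 before adjustment over all genes, and those of PAX2 and LHX1 are the widest.

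Per length, SIX2 stood at 17.0 ± 2.29 CPM per kilobase in 100Q and 15.6 ± 1.62 in 0Q (SD, n = 3 each), and SALL1 at 6.51 ± 0.78 in 100Q and 6.89 ± 0.31 in 0Q. Averaged over the 6 libraries, SIX2 was at the 87.7th percentile of protein-coding genes and SALL1 at the 71.2nd. By the mean over the 6 libraries EYA1 followed, at 1.17 ± 0.17 CPM per kilobase in 100Q and 1.77 ± 0.33 in 0Q, although LHX1 and WT1 had higher means in 100Q. LHX1 was at 1.23 ± 0.44 in 100Q and 0.82 ± 0.38 in 0Q, WT1 at 1.20 ± 0.22 in 100Q and 0.81 ± 0.09 in 0Q, and PAX2 at 1.04 ± 0.21 in 100Q and 0.76 ± 0.47 in 0Q. These 4 levels lay at the 42.6th to 47.0th percentile. SIX2 exceeded SALL1, SALL1 exceeded EYA1 and PAX2 exceeded OSR1 in 6 of 6 libraries. Between EYA1 and LHX1 the order held in 5 of 6 libraries, between LHX1 and WT1 in 3 and between WT1 and PAX2 in 4. In 0Q all libraries of EYA1 (1.41 to 2.06 CPM per kilobase) lay above those of LHX1 (0.54 to 1.25). Differences between neighbours were not tested. With the longest transcript as the length in place of all exons, LHX1 and WT1 changed places and the other ranks stayed.

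Each regulator has paralogs with related DNA-binding or catalytic domains, and their levels show which family members these cells contained. SIX2 was above its paralogs SIX4 and SIX5 in every library. SIX5 had 6.23 ± 1.07 CPM per kilobase in 100Q and 6.32 ± 0.11 in 0Q, and SIX4 had 4.998 ± 0.78 in 100Q and 5.43 ± 0.84 in 0Q (SD, n = 3 each). SIX3 was low and SIX6 silent. EYA1 was the lowest of the 4 EYA genes in every library, and EYA3 was the highest, with 66.5% ± 2.91 of the family's summed level per length in 100Q and 69.0% ± 4.57 in 0Q. SALL2 was the highest SALL gene, with SALL1 second in every library at 31.4% ± 3.76 of the family in 100Q and 32.1% ± 1.71 in 0Q.

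PAX2 ranked 3 or 4 among 9 PAX genes, behind PAX3, a neural crest and muscle regulator that was the highest in every library. PAX3 had 2.45 ± 0.23 CPM per kilobase in 100Q and 2.33 ± 0.30 in 0Q. PAX6 and PAX9 were also present, PAX1, PAX5 and PAX7 were low, and PAX4 was silent like PAX8. OSR2 held 97.8% ± 1.96 of the summed OSR level in 100Q and 98.0% ± 1.03 in 0Q, so the paralog of the low OSR1 was present in both groups. LHX1 ranked between 6 and 8 of 12 LHX, LMX and ISL genes, of which ISL2, known from motor neurons, was the highest in every library.

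**Figure D3:**
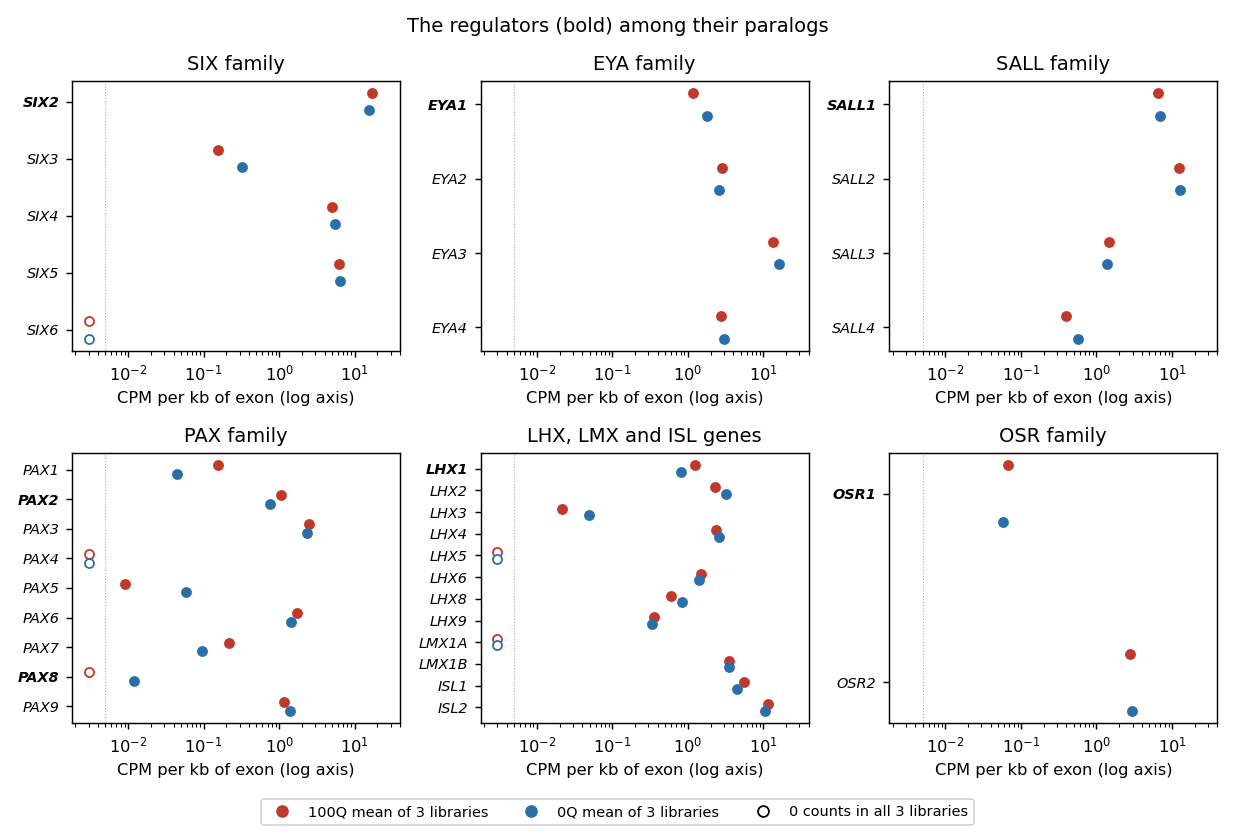
Mean level of each regulator (bold) and the paralogs reported here in CPM per kilobase of exon, on a log axis, with 100Q in red above 0Q in blue. Open circles left of the dotted line mark 0 counts in all 3 libraries of a group. SIX2 lies above the paralogs drawn with it, whereas EYA1, SALL1, PAX2, PAX8, LHX1 and OSR1 sit below other members of theirs.

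Of the 30 paralogs, 21 were tested and 0 passed (edgeR quasi-likelihood). Their median log2 fold change was -0.04, with 9 positive and 12 negative values. At an unadjusted p under 0.05, where 2.23% of all tested genes were lower, there were 2 of the 21, both lower in 100Q. EYA3, which like EYA1 pairs with SIX2 and related factors, was among them. The log2 fold change of EYA3 was -0.26 ± 0.11 (SE; edgeR quasi-likelihood, unadjusted p = 0.0276 and adjusted p = 0.987), and its groups overlapped.

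The proteins that the regulators work with were nearly all present. Of 17 partners and cofactors 16 were tested, and 1, LDB2, was silent, whereas LDB1, the adaptor that LIM homeobox factors such as LHX1 bind, was present. The highest were subunits of the NuRD complex, which SALL1 recruits to repress genes. HDAC1, a deacetylase, had 71.9 ± 3.17 CPM per kilobase in 100Q and 74.5 ± 1.95 in 0Q. RBBP7, a histone-binding subunit, had 63.2 ± 3.61 in 100Q and 63.0 ± 0.51 in 0Q, and MTA2, a scaffold subunit, 48.5 ± 5.56 in 100Q and 48.1 ± 3.38 in 0Q. None of the 16 passed (edgeR quasi-likelihood). At an unadjusted p under 0.05, where 2.23% of all tested genes were lower, there was 1, HDAC2, with a log2 fold change of -0.17 ± 0.08 (SE). WTIP, a LIM protein that binds WT1, had the next smallest p, with 0.47 ± 0.30.

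Other genes of the developing kidney were present in part. Of 16 further genes of nephron progenitors, 12 were present, 3 low (MEOX1, FGF8 and WNT4) and 1, FGF20, silent. The forkhead factor FOXC1 was the highest, at 48.5 ± 2.35 CPM per kilobase in 100Q and 53.1 ± 1.90 in 0Q, followed by the HOX genes of the kidney-forming segment HOXD11 (14.1 ± 3.56 in 100Q and 13.9 ± 1.11 in 0Q) and HOXA11 (11.8 ± 1.10 in 100Q and 13.5 ± 0.31 in 0Q). UNCX, a homeobox factor, had a log2 fold change of 0.37 ± 0.19 and FOXC1 of -0.13 ± 0.08 (SE). Of 12 ureteric bud genes 7 were present, 4 low and 1 silent. SOX9, SOX8 and GATA3 were the highest of this list. RET, the receptor for GDNF, had 0.99 ± 0.14 CPM per kilobase in 100Q and 0.63 ± 0.14 in 0Q, and its groups lay apart, with a log2 fold change of 0.65 ± 0.32 (SE). SOX9, at 4.43 ± 0.37 CPM per kilobase in 100Q and 3.53 ± 0.03 in 0Q, had a log2 fold change of 0.32 ± 0.18 (SE). None of the tested genes of either list passed (edgeR quasi-likelihood). The groups lay apart for 2 ureteric bud genes, RET and SOX9, both higher in 100Q. Among the progenitor genes they lay apart for 1 that was higher, UNCX, and 2 that were lower, FOXC1 and HOXA11. Over all tested genes 5.39% were apart and higher and 5.20% apart and lower.

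Of 11 genes of early nephron patterning 5 were present, with NOTCH2, TFAP2A and POU3F3 the highest, and HNF4A, IRX1, IRX2 and TFAP2B silent. Of 14 genes of the differentiated nephron 4 were present, 3 low and 7 silent. Those present included PODXL and SYNPO, known from podocytes, and the endocytic receptor LRP2. Among the 7 silent genes were UMOD, AQP2 and SLC12A1, which mark the loop of Henle and the collecting duct. Of 7 stromal genes 4 were present, led by FOXD1 at 15.7 ± 3.01 CPM per kilobase in 100Q and 13.6 ± 2.30 in 0Q, then TBX18 and MEIS1. Of these 3 lists 13 genes were tested and 0 passed (edgeR quasi-likelihood), and the smallest p of each list belonged to POU3F3 at a log2 fold change of -0.32 ± 0.18, LRP2 at -0.23 ± 0.14 and FOXD1 at 0.20 ± 0.16 (SE).

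Markers of other cell types were set beside these, since the libraries are labelled as embryonic kidney cells. Of 7 genes of the adrenal cortex 0 were present, and NR0B1, CYP11A1 and MC2R had 0 counts in every library. NR5A1, the defining factor of that lineage, had 0, 2 and 4 counts in 100Q, against 3, 7 and 0 in 0Q. Of 11 neuronal genes 7 were present, and the highest were the intermediate filament genes NEFM (46.2 ± 6.14 CPM per kilobase in 100Q and 51.4 ± 2.96 in 0Q), NEFL (24.5 ± 2.16 in 100Q and 27.97 ± 1.85 in 0Q) and INA (12.9 ± 1.13 in 100Q and 16.2 ± 1.02 in 0Q). ELAVL3 and ELAVL4 were silent. The neuronal genes summed to 93.3 to 110.04 CPM per kilobase in 100Q libraries, against 109.9 to 122.6 in 0Q libraries, with INA at a log2 fold change of -0.32 ± 0.12 (SE). The part of the neuronal genes in the values of the regulators was not tested.

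Over all these lists, 76 of 125 genes were tested and 0 passed with edgeR's quasi-likelihood test, DESeq2 or limma-voom. At an unadjusted p under 0.05 edgeR had 4 of the 76, all lower, beside 371 higher and 333 lower among all 14905 tested genes. DESeq2 had 6 of the 105 with a p (1 higher, 5 lower), where 1.78% of all genes were lower. With limma-voom there were 7 (1 higher, 6 lower), where 2.66% of all genes were lower. The share of all genes that were higher was not worked out for DESeq2 or limma-voom. The median log2 fold change of the 76 tested genes was -0.0053. The lowest adjusted p was 0.987 (edgeR quasi-likelihood).

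**Figure D4:**
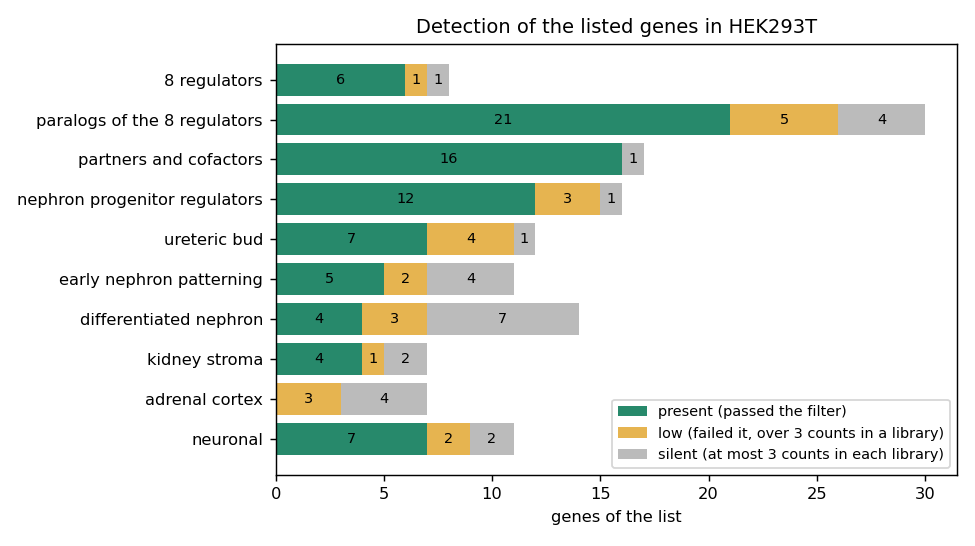
Number of genes of each list that were present, low or silent in the 6 libraries. Of the 8 regulators 6 were present, of 14 differentiated nephron genes 4, and of 7 adrenal cortex genes 0.

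Queuosine sits in the anticodon of tRNAs that read codons with C or U at the third base, so the coding sequences of the regulators were examined for these codons. They were taken from the longest complete coding sequence in GENCODE release 44. Tyrosine, histidine, asparagine and aspartate codons made up 16.4% of the EYA1 sequence, 15.3% in PAX2 and LHX1, 15.1% in SIX2, 15.01% in PAX8, 13.5% in OSR1, 13.0% in WT1 and 12.6% in SALL1. The median of 19787 protein-coding genes was 13.5%. The share of these codons that ended in C was 90.3% in LHX1, 88.6% in SIX2, 78.8% in PAX2, 76.5% in WT1, 75.0% in OSR1, 69.1% in PAX8 and 61.1% in SALL1, above the median of 57.1% over all genes. EYA1 was below it, with 45.1%, at the 29.6th percentile, whereas LHX1 was at the 96.8th and SIX2 at the 95.7th. These are properties of the reference sequences and were not tested against the fold changes.

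As examples, the 30 codons richest in these codons are printed for 4 regulators that were present. They are given as the DNA of the coding strand on hg38, with each tyrosine, histidine, asparagine or aspartate codon in capitals. All 4 regulators have a C-ending share above the median, and no stretch is printed for EYA1, whose share is below it. The stretches cover codons 170 to 199 of SIX2, 144 to 173 of LHX1, 218 to 247 of WT1 and 91 to 120 of SALL1.
SIX2: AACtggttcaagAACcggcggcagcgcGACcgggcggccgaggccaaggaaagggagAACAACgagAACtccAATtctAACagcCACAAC
LHX1: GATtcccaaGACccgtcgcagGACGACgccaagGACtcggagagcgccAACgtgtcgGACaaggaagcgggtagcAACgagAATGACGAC
WT1: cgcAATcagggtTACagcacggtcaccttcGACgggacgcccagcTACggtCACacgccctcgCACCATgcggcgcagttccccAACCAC
SALL1: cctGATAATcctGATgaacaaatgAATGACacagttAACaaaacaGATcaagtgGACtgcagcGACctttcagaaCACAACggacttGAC
In the SIX2 stretch 9 of the 10 marked codons end in C and 1 in T, in LHX1 9 of 11, in WT1 7 of 9 and in SALL1 7 of 12. SALL1 thus carries the most T-ending codons of the 4 stretches, 5, and it also has the lowest C-ending share of the 4 over its whole coding sequence.

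**Figure D5:**
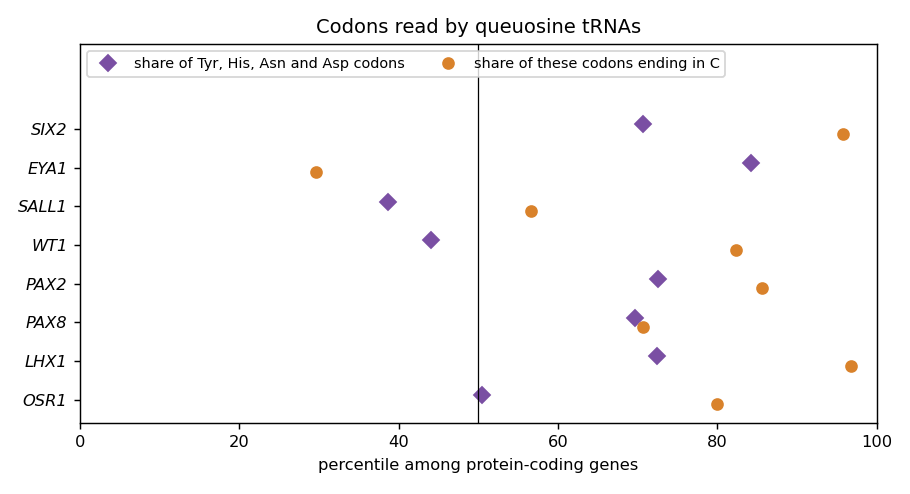
Percentile of each regulator among protein-coding genes for the share of tyrosine, histidine, asparagine and aspartate codons (diamonds) and for the share of these ending in C (circles). The line marks the median gene. For the C-ending share, 7 of 8 regulators lie above the median and EYA1 lies below it.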

How the data were processed

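The expected counts per Ensembl gene were deposited by the authors without normalization. Per the submitters' processing notes, FastQC, STAR and RSEM were used, with no versions given, and the series design gives hg38. The library method is MSR-seq per the labels, and the sample titles read mRNA-seq. Annotation, strand setting and any molecular identifiers were not given in the sources used here. Symbols, coordinates (1-based), exon lengths and coding sequences came from GENCODE release 44, which matched 62541 of 63086 identifiers. The unmatched ones held 0.129% of counts. Estimated counts were rounded and fitted with edgeR 4.0.16 in R 4.3.3 (TMM, default filter at a minimum count of 10, quasi-likelihood test, Benjamini-Hochberg adjusted p under 0.05 over 14905 genes, 100Q minus 0Q), which was tested on simulated data. Alternatives were RLE, library size only, no filter or a mean count of at least 50, unrounded counts, a replicate block, DESeq2 1.42.0, limma-voom (limma 3.58.1) and each library left out. Within groups, no pair of libraries matched to within sampling noise (chi-square over its degrees of freedom, 5.36 to 14.2). Count intervals and floors cover counting error only, because amplified reads need not be separate molecules.

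The regulators and gene lists were chosen with earlier results of these data known. Named were all 8 regulators, genes overlapping them, and of each list the genes past the threshold, the 2 with the smallest p and the 3 with the highest level. Genes named beyond this, such as silent or low genes and paralogs given in order, were chosen after their values were seen. By the same rule, the 3 genes most like SALL1, the regulator with the highest mean CPM, are named in the closing section. A few genes meeting this rule are left out and not reported here. A comparison of protein sequences was planned but not made, and a shared stretch of transcripts is given in its place.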

Additional observations from a re-analysis of the deposited data

How the results depend on the processing

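No tested regulator or listed gene passed in any of the 14 alternatives. Depending on the alternative, 4 to 8 of the 8 regulators and 65 to 105 of the 125 listed genes were tested. All 82 alternative log2 fold changes of the 6 tested regulators kept their direction. They ran from -0.72 to -0.45 for EYA1, 0.44 to 0.71 for WT1, 0.07 to 0.96 for PAX2, 0.26 to 1.01 for LHX1, 0.05 to 0.22 for SIX2 and -0.16 to -0.01 for SALL1. The count of all genes past the threshold, 2 with edgeR and all libraries, was 71 with no filter on low counts (36 higher, 35 lower), 1 with the stricter filter, 14 with DESeq2 (10 higher, 4 lower), 1 with limma-voom and 0 to 6 with 1 library left out (6 when 100Q replicate 3 was left out, and 0 for 100Q replicate 1 and for 0Q replicates 1 and 2). The cause was not tested. Same-numbered libraries of the groups did not deviate together (correlations of 0.001, -0.020 and 0.081), so the numbers were not taken as pairs. With the replicate block, the count of calls was 3 over all genes (2 higher, 1 lower) and 0 among the regulators. PAX2 and LHX1 failed the stricter filter and have no value there. With the longest transcript as length, 8 of 16 group levels per length of the regulators moved by more than 1 SD, among them WT1 in 100Q at 3.05 CPM per kilobase. The 13 to 153 counts per library of PAX2, LHX1, WT1 and EYA1 limit the precision of their fold changes.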

Other observations

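Over the 6 libraries, the genes whose log2 CPM varied most like that of SALL1, among 10577 others averaging 10 CPM or more, were RGL2 (Pearson r = 0.997), CDC7 (0.995) and NIPA1 (0.9935). Of these genes 298 had an absolute r above 0.9. The points are 6 libraries, each with 1 depth shared by all its genes, and the values are a description.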
